A study of Rattus norvegicus with 16 samples.

Results

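Heat shock proteins are molecular chaperones that keep other proteins folded, and the set described here holds 10 rat genes of the cytosol and the mitochondrial matrix: the transcription factor gene Hsf1, the small heat shock protein genes Hspb1 and Hspb8, the HSP70 system genes Hspa8, Hsph1 and Dnajb1, the HSP90 genes Hsp90aa1 and Hsp90ab1, and the mitochondrial chaperonin genes Hspd1 and Hspe1. They were chosen by name, as the entries of the count table whose gene symbol is one of these, and all 10 were found among the 32623 genes of the table. In this system small heat shock proteins hold unfolding proteins in a soluble state, HSP70 refolds them with the help of J-domain proteins and exchange factors, HSP90 finishes the maturation of kinases and receptors, and HSP60 with its lid HSP10 folds proteins inside mitochondria. HSF1 is held inactive by chaperones in unstressed cells, and when unfolded proteins draw the chaperones away it binds heat shock elements in the promoters of chaperone genes. The proteins of kidney tubule cells are exposed to low pH in metabolic acidosis, and the heat shock response is a classical reaction of these cells to ischaemia and toxins.

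The libraries came from 2 rat kidney cell lines in indirect co-culture, NRK-52E, labelled epithelial and grown on filter inserts, and NRK-49F, fibroblasts grown in the wells below. Differences between the lines, also in the effect of pH, cannot be told apart from those of growth support. After 24 h without serum the co-cultures stood for 48 h in medium of pH 7.4 or pH 6.0 (acidosis), and RNA of each line was sequenced on its own after poly(A) selection. This gave 4 groups of 4 libraries, namely NRK-52E cells at pH 7.4 (libraries N1, N2, N5 and N6), NRK-52E cells at pH 6.0 (N3, N4, N7 and N8), NRK-49F cells at pH 7.4 (N9, N10, N13 and N14) and NRK-49F cells at pH 6.0 (N11, N12, N15 and N16). Both lines are long-established cultures, and a relative level cannot tell fewer cells with a transcript from less RNA per cell. In the library names stands a further number whose meaning was not given, 21 or 22 in NRK-52E cells and 20 or 21 in NRK-49F cells, with 2 libraries per number and pH. Nothing states that the libraries of a group came from separate cultures, so that p-values measure only the spread between these libraries. Library totals ran from 16201084 to 34784862 counted fragments with a median of 20790017.5, and the least abundant member, Hspb8 in NRK-52E cells at pH 7.4, still had at least 130 counts in each library. Levels are given as FPM, the fragments counted for a gene scaled to a fixed effective library size, which is the total times the TMM factor of edgeR. They are levels of RNA, and the amounts of chaperone proteins and the activity of HSF1 were not measured.

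The defining markers went against part of the labels. Of 10 epithelial markers, Esrp1 had no count in any library, and Epcam, Krt18, Cldn4 and Cldn7 stayed below 0.4 FPM in all 16. The mean ± SD of Cdh1, which encodes E-cadherin, over 4 libraries of NRK-52E cells was 1.62 ± 0.221 FPM before and 0.315 ± 0.157 FPM after acidosis. The epithelial list, led in all libraries by the keratin gene Krt8, summed to 435 to 504 FPM in NRK-52E cells at pH 7.4 and 303 to 367 FPM at pH 6.0, against 842 to 994 and 269 to 283 FPM in NRK-49F cells. Krt7 was at 36.7 ± 4.69 FPM in NRK-52E cells and 0.463 ± 0.338 FPM in NRK-49F cells at pH 7.4. The desmosome gene Dsp went the other way, at 5.05 ± 0.994 and 52.8 ± 5.70 FPM, and moved to 0.126 ± 0.170 and 66.0 ± 3.93 FPM with acidosis. Among fibroblast markers, NRK-49F cells at pH 7.4 had 6210 ± 410 FPM of Col1a1 and 392 ± 54.7 FPM of Pdgfra, and NRK-52E cells had 23.6 ± 3.84 and 0.286 ± 0.110 FPM. The collagen gene Col3a1 was at 6220 ± 95.0 FPM in NRK-52E cells and 458 ± 103 FPM in NRK-49F cells, and Thy1 had no count in any library. At pH 6.0 Col3a1 was at 2630 ± 602 FPM in NRK-52E cells and 53.9 ± 25.8 FPM in NRK-49F cells. The 10 fibroblast markers summed to 6560 to 6840 FPM at pH 7.4 and 2000 to 3430 FPM at pH 6.0 in NRK-52E cells, against 7120 to 8620 and 8630 to 10200 FPM in NRK-49F cells. Of 5 proximal tubule markers, Slc34a1, Lrp2 and Cubn averaged at most 1 FPM in NRK-52E cells at either pH. Aqp1, the most abundant, went from 34.4 ± 7.64 to 26.4 ± 3.95 FPM there with acidosis, and averaged 21.8 ± 3.88 and 41.6 ± 20.4 FPM in NRK-49F cells. The leukocyte gene Ptprc had no count in any library, and Cd68, a lysosomal protein of macrophages that fibroblasts can also express, was at 81.2 ± 16.4 FPM in NRK-49F cells at pH 7.4 and 243 ± 20.2 FPM at pH 6.0. The endothelial gene Tek led a list that summed to 35.4 to 44.2 FPM in NRK-52E cells at pH 7.4 and to 5.75 to 8.04 FPM at pH 6.0. The lines are therefore called by their names here, and the part of these marker shifts in the results was not tested.

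Acidosis raised 8 of the 10 members in NRK-52E cells and 5 of 10 in NRK-49F cells, and lowered none in either line. In NRK-49F cells the count fell to 3 without N9, N10 or N15. From 2 against 2 libraries, none was called with the number 21 alone and 8 with the number 20 alone. The 5 members called in all libraries had log2 values of 0.29 to 0.71 with the number 21 alone. A gene was called where the false discovery rate was below 0.01 in both edgeR and DESeq2, adjusted over all genes tested. In NRK-52E cells 56.7% of 13735 genes were called, 28.2% as higher and 28.5% as lower at pH 6.0, the background against which the 8 members stand. In NRK-49F cells 37.8% of 13339 genes were called, 18.4% as higher and 19.4% as lower. The median log2 fold change of the members was 0.70 in NRK-52E cells and 0.46 in NRK-49F cells, and that of all genes tested was 0.00 in both. The members and the lists below were chosen with earlier results of these data known, so such contrasts are not an independent test. The effect of pH differed between the lines for 5 members by the interaction of line and pH, larger in NRK-52E cells for Hspb8, Hsf1, Dnajb1 and Hsp90aa1 and larger in NRK-49F cells for Hsph1. In that interaction 36.9% of 14679 genes were called, 19.3% with the larger log2 change in NRK-52E cells and 17.5% with the smaller, so that 5 of 10 members is not far above the background. Scaled by library totals, the median of all genes in NRK-52E cells moved to -0.21 and the share of higher calls from 49.7% to 37.6%, and 5 members were called as higher there. The counts of the further lists below were not recomputed with other scalings or with a library left out.

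**Figure D1:**
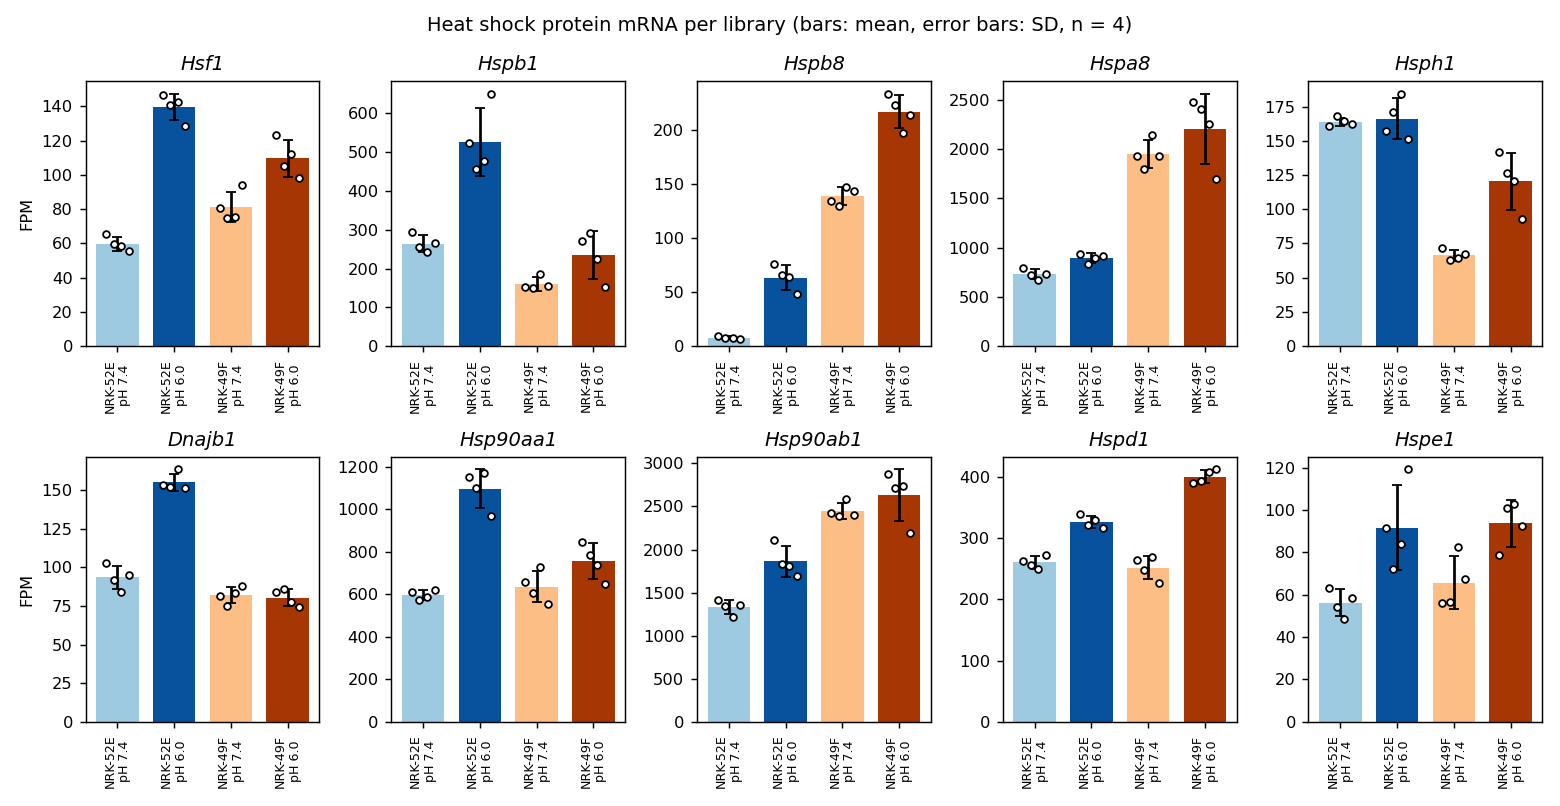
Level of each of the 10 members in FPM (vertical axes, each from 0) in the 4 groups of cell line and pH (horizontal axes). Bars are group means, error bars the SD and points the 4 libraries of a group, and the 4 points of Hspb8 at pH 7.4 in NRK-52E cells lie between 6.19 and 9.70 FPM.

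Hsf1 (ENSRNOG00000021732, chromosome 7 of rn6) encodes the master transcription factor of the heat shock response. In NRK-52E cells it was at 65.7, 59.4, 58.2 and 55.7 FPM in libraries N1, N2, N5 and N6 at pH 7.4, and at 147, 141, 142 and 128 FPM in N3, N4, N7 and N8 at pH 6.0. In NRK-49F cells it was at 80.6, 74.7, 75.5 and 93.8 FPM in N9, N10, N13 and N14 at pH 7.4 and at 123, 105, 112 and 98.0 FPM in N11, N12, N15 and N16 at pH 6.0. All 4 groups were separate, in the order NRK-52E at pH 6.0, NRK-49F at pH 6.0, NRK-49F at pH 7.4 and NRK-52E at pH 7.4. The lines differed by a call at pH 7.4 (log2 -0.36, but -0.05 and not called with library totals) and not at pH 6.0 (log2 0.33, edgeR adjusted p = 0.0128). The log2 fold change was 1.20 ± 0.08 (SE) in NRK-52E cells (adjusted p = 6.19e-07 in edgeR; 1.16 and 1.23 within the numbers 21 and 22) and 0.42 ± 0.10 in NRK-49F cells (0.56 and 0.29 within the numbers 20 and 21). The interaction of 0.77 ± 0.14 was called (edgeR adjusted p = 0.000137). The call in NRK-49F cells was lost when N9, N10, N11, N13 or N15 was left out, with values of 0.36 to 0.42.

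Of Hsf2, Hsf4, Hsf5 and Hsbp1, 3 were abundant enough to test, and in NRK-52E cells Hsf2, which can form mixed trimers with HSF1, rose by 0.56 ± 0.09 on the log2 scale while Hsbp1, the gene of a small protein that binds HSF1 trimers and dampens their activity, fell by 0.86 ± 0.21. Hsbp1 went from 167 ± 14.7 to 93.0 ± 33.4 FPM. In NRK-49F cells Hsf2 (0.37 ± 0.12) and Hsbp1 (-0.49 ± 0.14) were not called, with adjusted p = 0.0190 and 0.0108 in edgeR, and no interaction was called for Hsf2 or Hsbp1. The scarce factor Hsf4 fell from 3.70 ± 0.565 to 1.68 ± 0.395 FPM in NRK-49F cells (log2 -1.15 ± 0.24), was at -0.06 ± 0.19 in NRK-52E cells, and its interaction of 1.08 ± 0.30 was called.

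The largest change among the members was that of Hspb8 (ENSRNOG00000022392, chromosome 12), whose protein HSPB8 works with the co-chaperone BAG3 in the selective removal of misfolded proteins by autophagy. NRK-52E cells held 9.70, 7.91, 7.59 and 6.19 FPM in N1, N2, N5 and N6 at pH 7.4 and 75.8, 65.5, 64.4 and 48.5 FPM in N3, N4, N7 and N8 at pH 6.0. NRK-49F cells held 135, 130, 148 and 144 FPM in N9, N10, N13 and N14 at pH 7.4 and 234, 224, 198 and 214 FPM in N11, N12, N15 and N16 at pH 6.0. All 4 groups were separate, both NRK-49F groups lay above both NRK-52E groups, and the smallest value at pH 6.0 in NRK-52E cells was about 5 times the largest at pH 7.4. Acidosis raised Hspb8 7.99-fold in NRK-52E cells (log2 3.0 ± 0.17, edgeR adjusted p = 2.27e-07; 2.97 and 3.01 within the numbers 21 and 22) and 1.55-fold in NRK-49F cells (log2 0.63 ± 0.09, edgeR adjusted p = 0.000126; 0.79 and 0.48 within the numbers 20 and 21). In NRK-52E cells the value lay above 98.4% of all genes tested. The interaction was 2.36 ± 0.19 (edgeR adjusted p = 2.45e-08), and between the lines NRK-52E cells were 16.7-fold lower at pH 7.4 and 3.46-fold lower at pH 6.0.

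Bag3, the partner of HSPB8, did not share this rise. It was at 143 ± 10 and 162 ± 6.61 FPM in NRK-52E cells at pH 7.4 and 6.0 and at 118 ± 11.9 and 124 ± 14.7 FPM in NRK-49F cells, and was not called in either line (log2 0.16 ± 0.08 and 0.06 ± 0.11). The count ratio of Hspb8 to Bag3 within a library, which does not depend on scaling, went from 0.0542 to 0.387 in NRK-52E cells (7.14-fold; exact permutation test, two-sided, p = 0.0286, adjusted p = 0.0440 over 20 ratio tests) and from 1.18 to 1.76 in NRK-49F cells. The p of 0.0286 is the smallest that 4 against 4 libraries can give. Counts of different genes also follow transcript length, so only the change of such a ratio is read here, not its level.

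Hspb1 (ENSRNOG00000023546, chromosome 12) encodes HSP27, which binds unfolding proteins and protects the actin cytoskeleton. NRK-52E cells had 294, 255, 242 and 266 FPM in N1, N2, N5 and N6 and 525, 456, 477 and 651 FPM in N3, N4, N7 and N8. NRK-49F cells had 152, 150, 187 and 155 FPM in N9, N10, N13 and N14 and 270, 291, 225 and 151 FPM in N11, N12, N15 and N16. In NRK-52E cells the pH groups did not overlap, while in NRK-49F cells library N16 at pH 6.0 lay among those at pH 7.4. The rise in NRK-52E cells was 1.97-fold (log2 0.98 ± 0.13; 0.80 and 1.13 within the numbers 21 and 22). In NRK-49F cells the log2 value of 0.53 ± 0.18 was not called (edgeR adjusted p = 0.0238), and it was 0.90 within the number 20 and 0.12 within the number 21. It was called without library N16 (0.70), and at 0.54 by DESeq2 alone or with no filter on low counts. The interaction of 0.44 ± 0.23 was not called (edgeR adjusted p = 0.117).

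Among the other small heat shock proteins, Hspb6, a heat shock protein of muscle and other contractile cells, rose in both lines, from 16.3 ± 1.85 to 59.3 ± 4.94 FPM in NRK-52E cells (log2 1.85 ± 0.12) and from 19.6 ± 1.30 to 44.0 ± 8.75 FPM in NRK-49F cells (1.15 ± 0.15). Hspb2 fell in NRK-49F cells, from 17.7 ± 3.20 to 8.81 ± 0.486 FPM. Of the 6 further genes of this family, 4 could be tested in NRK-52E cells, with 1 called as higher and none as lower. In NRK-49F cells 3 could be tested, with 1 called in each direction. Over all genes, 28.2% were called as higher and 28.5% as lower in NRK-52E cells. The shares in NRK-49F cells were 18.4% and 19.4%, and with so few genes the counts do not stand apart from this background.

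Hspa8 (ENSRNOG00000034066, chromosome 8) encodes HSC70, the constitutive HSP70 of the cytosol, and was not called for pH in either line. The levels were 791, 722, 670 and 738 FPM in N1, N2, N5 and N6 and 940, 830, 892 and 918 FPM in N3, N4, N7 and N8 of NRK-52E cells. In NRK-49F cells they were 1934, 1797, 2142 and 1929 FPM in N9, N10, N13 and N14 and 2479, 2408, 2253 and 1694 FPM in N11, N12, N15 and N16. The NRK-52E libraries at pH 6.0 lay above those at pH 7.4 without overlap, but the difference of 0.28 ± 0.09 on the log2 scale missed the threshold in edgeR (adjusted p = 0.0182) and passed it in DESeq2 (adjusted p = 0.00664), and it was 0.07 with library totals. In NRK-49F cells the pH groups overlapped (log2 0.17 ± 0.13; 0.39 and -0.07 within the numbers 20 and 21). The clear difference of Hspa8 was between the lines, lower in NRK-52E cells by a log2 fold change of -1.34 ± 0.09 at pH 7.4 and -1.32 ± 0.14 at pH 6.0. Fragments that matched several places were counted at each of them, and Hspa8, Hsp90ab1, Hspd1 and Hspe1 have pseudogenes or near copies in mammalian genomes, so their levels are uncertain to that extent.

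Hsph1 (ENSRNOG00000000902, chromosome 12) encodes HSP105, a large HSP70 relative that exchanges the nucleotide of HSP70, and was the only member whose interaction was called with the larger response in NRK-49F cells. NRK-49F cells had 71.7, 62.8, 64.1 and 67.5 FPM in N9, N10, N13 and N14 at pH 7.4 and 142, 127, 121 and 92.6 FPM in N11, N12, N15 and N16 at pH 6.0. NRK-52E cells had 161, 168, 164 and 162 FPM in N1, N2, N5 and N6 and 157, 171, 184 and 151 FPM in N3, N4, N7 and N8. The pH groups of NRK-49F cells were separate and those of NRK-52E cells lay over each other. Acidosis raised Hsph1 1.79-fold in NRK-49F cells (log2 0.84 ± 0.12, edgeR adjusted p = 0.000130; 1.0 and 0.68 within the numbers 20 and 21), the value in NRK-52E cells was 0.00 ± 0.08 (-0.04 and 0.02 within the numbers 21 and 22; -0.21, the shift of the median gene, with library totals), and the interaction was -0.85 ± 0.15 (edgeR adjusted p = 0.000153). The excess in NRK-52E cells was 2.61-fold at pH 7.4 and 1.36-fold at pH 6.0. The call at pH 6.0 was lost when N3, N4, N7, N12, N15 or N16 was left out, with log2 values of 0.33 to 0.49.

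Dnajb1 (ENSRNOG00000021824, chromosome 19) encodes HSP40, the J-domain protein that hands substrates to HSP70 and starts its ATP cycle. In NRK-52E cells it was at 103, 91.9, 84.4 and 95.3 FPM in N1, N2, N5 and N6 and at 153, 152, 164 and 152 FPM in N3, N4, N7 and N8. In NRK-49F cells it was at 81.2, 75.3, 83.7 and 88.0 FPM in N9, N10, N13 and N14 and at 83.8, 86.0, 77.4 and 74.5 FPM in N11, N12, N15 and N16. The NRK-52E libraries at pH 6.0 thus stood above all 12 others, which differed little. The rise in NRK-52E cells was 1.64-fold (log2 0.71 ± 0.08, edgeR adjusted p = 2.00e-05; 0.61 and 0.79 within the numbers 21 and 22), the value in NRK-49F cells was -0.04 ± 0.09 (0.12 and -0.20 within the numbers 20 and 21), and the interaction was 0.74 ± 0.12 (edgeR adjusted p = 4.83e-05).

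The count ratio of Dnajb1 to Hspa8 went from 0.128 to 0.173 in NRK-52E cells (1.35-fold, exact permutation p = 0.0286, adjusted p = 0.0440, groups separate), and was 0.0421 and 0.0368 in NRK-49F cells (adjusted p = 0.134, exact permutation test). The ratio of Hsph1 to Hspa8 went from 0.0341 to 0.0545 in NRK-49F cells (1.60-fold, exact permutation p = 0.0286, adjusted p = 0.0440), and was 0.225 and 0.185 in NRK-52E cells, where the groups overlapped (adjusted p = 0.107, exact permutation test). The difference of these ratio changes between the lines was not tested.

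Hspa1b, 1 of the 2 twin genes of the stress-inducible HSP70, was scarce. It was at 0.609, 1.07, 0.622 and 0.666 FPM in N1, N2, N5 and N6 and at 7.22, 6.16, 7.99 and 4.61 FPM in N3, N4, N7 and N8 of NRK-52E cells, from at least 13 counts in a library. Hspa1b was at 4.23 ± 0.705 and 4.47 ± 1.49 FPM in NRK-49F cells at pH 7.4 and 6.0. The rise in NRK-52E cells was 3.09 ± 0.27 on the log2 scale and the interaction 3.02 ± 0.38, and NRK-49F cells, whose level at pH 7.4 was the higher one, gave 0.06 ± 0.25. Hspa1a was not analysed here, and as the twins are nearly identical the value of Hspa1b may hold fragments of both. Over all genes, 28.2% were called as higher in NRK-52E cells and 18.4% in NRK-49F cells. Among 13 tested HSP70 relatives and exchange factors, 7 were called as higher and 2 as lower in NRK-52E cells, led at 10 FPM or more by the large exchange factors Hspa4l (22.9 ± 1.21 to 62.1 ± 11.2 FPM) and Hspa4 (217 ± 10.1 to 488 ± 83.5 FPM), relatives of Hsph1. In NRK-49F cells 1 was called as higher and 1, Bag5, as lower, and Hspa4 was not called (log2 0.21 ± 0.10). Of the 13 further J-domain proteins 5 were called as higher in NRK-52E cells, with Dnajb6 (log2 1.44 ± 0.11) and Dnajb2 (1.40 ± 0.08) in front, and 7 in NRK-49F cells, with Dnaja4 (1.02 ± 0.14) and Dnajc21 (0.94 ± 0.15) in front, and none as lower in either line.

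Of the HSP90 pair, Hsp90aa1 (ENSRNOG00000059714, chromosome 6) encodes the inducible form and Hsp90ab1 (ENSRNOG00000019834, chromosome 9) the constitutive form. Hsp90aa1 was at 609, 571, 587 and 620 FPM in N1, N2, N5 and N6 and at 1151, 1099, 1169 and 968 FPM in N3, N4, N7 and N8 of NRK-52E cells. In NRK-49F cells it was at 657, 605, 727 and 554 FPM in N9, N10, N13 and N14 and at 848, 785, 738 and 647 FPM in N11, N12, N15 and N16. The NRK-52E libraries at pH 6.0 stood above all others, and the other 3 groups overlapped in the order of their means. The rise of Hsp90aa1 was 1.81-fold in NRK-52E cells (log2 0.86 ± 0.09, edgeR adjusted p = 9.47e-06; 0.89 and 0.80 within the numbers 21 and 22) and the value in NRK-49F cells 0.23 ± 0.12 (0.37 and 0.09 within the numbers 20 and 21). The interaction of 0.61 ± 0.15 was called (edgeR adjusted p = 0.00236), but not with library totals (0.37) or without library N3 (0.47). Without N3 the median interaction of all genes also moved, from -0.01 to -0.12.

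Hsp90ab1 was at 1412, 1347, 1218 and 1354 FPM in N1, N2, N5 and N6 and at 2109, 1832, 1811 and 1694 FPM in N3, N4, N7 and N8 of NRK-52E cells, and from 2394 to 2584 FPM and from 2195 to 2876 FPM in NRK-49F cells at pH 7.4 and 6.0. It rose in NRK-52E cells by 0.46 ± 0.10 on the log2 scale (0.47 and 0.43 within the numbers 21 and 22), a call that was lost without library N6 (0.45) and with library totals (0.25), and gave 0.09 ± 0.11 in NRK-49F cells. The transcript of the inducible form gained on that of the constitutive one in NRK-52E cells. The count ratio of Hsp90aa1 to Hsp90ab1 was 0.431, 0.424, 0.482 and 0.458 in the NRK-52E libraries at pH 7.4 and 0.546, 0.600, 0.645 and 0.572 in those at pH 6.0, a 1.31-fold change (exact permutation p = 0.0286, adjusted p = 0.0440). In NRK-49F cells the ratio was 0.258 and 0.287, with overlapping groups (adjusted p = 0.107, exact permutation test).

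Of 15 co-chaperones of HSP90, 10 were called as higher, 2 as lower and 3 not at all in NRK-52E cells, where 28.2% of all genes were called as higher. Stip1, which bridges HSP70 and HSP90, went from 148 ± 10.3 to 351 ± 28.8 FPM, and Ptges3, which encodes the p23 protein that stabilises the closed form of HSP90, from 250 ± 22.7 to 580 ± 29.9 FPM. The phosphatase gene Ppp5c fell by 0.65 ± 0.09 and Fkbp5 by 0.58 ± 0.12 on the log2 scale. In NRK-49F cells, with 18.4% of all genes as background, 6 of 15 were called as higher and none as lower, led by Aarsd1 (log2 0.83 ± 0.11) and the cyclophilin gene Ppid (0.71 ± 0.10). Of the 14 subunits of the cytosolic chaperonin, which folds actin and tubulin, and of its prefoldin helper, 9 were called as higher in NRK-52E cells, led by Pfdn2 (log2 1.38 ± 0.14) and Cct4 (0.90 ± 0.10), and none as lower. In NRK-49F cells Cct6a, Cct8 and a further subunit were called as higher, and Vbp1 and Pfdn5 as lower.

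The mitochondrial pair was raised in both lines. Hspd1 (ENSRNOG00000014525, chromosome 9), the gene of the folding chamber HSP60, was at 263, 256, 249 and 273 FPM in N1, N2, N5 and N6 and at 339, 321, 330 and 316 FPM in N3, N4, N7 and N8 of NRK-52E cells. In NRK-49F cells it was at 264, 248, 269 and 227 FPM in N9, N10, N13 and N14 and at 390, 392, 407 and 412 FPM in N11, N12, N15 and N16. The lines overlapped at pH 7.4, and at pH 6.0 all NRK-49F libraries lay above all NRK-52E libraries. The log2 fold change was 0.65 ± 0.09 in NRK-49F cells (edgeR adjusted p = 7.56e-05; 0.62 and 0.71 within the numbers 20 and 21) and 0.31 ± 0.08 in NRK-52E cells (edgeR adjusted p = 0.00380; 0.31 and 0.29 within the numbers 21 and 22). The NRK-52E call was lost without library N1, N2, N5, N6 or N7 (0.26 to 0.32), with no filter on low counts (0.28) and with library totals (0.10). The interaction of -0.36 ± 0.11 was just short of the threshold in edgeR (adjusted p = 0.0106) and past it in DESeq2 (adjusted p = 0.000243), and it was called without N3 or N13 (-0.49 to -0.39), with library totals (-0.60) and with DESeq2 size factors (-0.37). The median interaction of all genes also moved, from -0.01 to -0.12 without N3 and to -0.25 with library totals.

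Hspe1 (ENSRNOG00000051624, chromosome 9), the gene of the lid HSP10, was at 63.4, 54.2, 48.5 and 58.6 FPM in N1, N2, N5 and N6 and at 91.4, 72.4, 83.8 and 119 FPM in N3, N4, N7 and N8 of NRK-52E cells. In NRK-49F cells it was at 56.0, 56.8, 82.8 and 67.4 FPM in N9, N10, N13 and N14 and at 78.7, 101, 103 and 92.3 FPM in N11, N12, N15 and N16. The pH groups were separate in NRK-52E cells, and in NRK-49F cells library N13 at pH 7.4 lay above N11 at pH 6.0. The rise was 0.69 ± 0.16 in NRK-52E cells (0.44 and 0.91 within the numbers 21 and 22; not called without N5, at 0.61, or with library totals, at 0.48) and 0.50 ± 0.14 in NRK-49F cells (0.67 and 0.36 within the numbers 20 and 21; not called without N9, N10, N12, N14, N15 or N16, at 0.42 to 0.51, or with all 16 libraries in one fit). The ratio of Hspe1 to Hspd1 showed no change past the threshold in either line (adjusted p = 0.0816 and 0.391, exact permutation test).

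The transcript of Hspd1 rose less than that of Hspa9, the mitochondrial HSP70 gene, in NRK-52E cells. Hspa9, whose protein pulls precursors into the matrix and folds them there, was at 262, 259, 265 and 288 FPM in N1, N2, N5 and N6 and at 979, 895, 857 and 602 FPM in N3, N4, N7 and N8. Its log2 fold change was 1.61 ± 0.14 in NRK-52E cells and 0.82 ± 0.10 in NRK-49F cells, and the interaction was 0.78 ± 0.17. The ratio of Hspd1 to Hspa9 went from 0.970 to 0.398 in NRK-52E cells (exact permutation p = 0.0286, adjusted p = 0.0440) and was 1.20 and 1.08 in NRK-49F cells (adjusted p = 0.159, exact permutation test).

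Of 15 mitochondrial chaperones and proteases 7 were called as higher and 2 as lower in NRK-52E cells, and 8 and none in NRK-49F cells. Of all genes 56.7% and 37.8% were called. Grpel1, the exchange factor of HSPA9, went from 54.0 ± 7.64 to 147 ± 12.6 FPM in NRK-52E cells, while the protease genes Spg7 and Htra2 fell by 1.08 ± 0.16 and 0.72 ± 0.18 on the log2 scale. In NRK-49F cells the first place belonged to Afg3l2, a subunit of the protease that clears damaged proteins from the inner membrane. Its levels of 331, 319, 402 and 320 FPM in N11, N12, N15 and N16 stood against 69.2, 65.4, 70.5 and 70.8 FPM in N9, N10, N13 and N14 (log2 2.30 ± 0.10). In NRK-52E cells the log2 value was 0.28 ± 0.08, and the interaction was -2.03 ± 0.12 (edgeR adjusted p = 6.53e-10). Dnaja3, a mitochondrial J-domain protein, followed in NRK-49F cells with 1.0 ± 0.12.

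Of 16 chaperones of the endoplasmic reticulum, which answer to other transcription factors than HSF1, 12 were called as higher, 1 (Pdia4) as lower and 3 not at all in NRK-52E cells, with a median of 1.01 on the log2 scale. In NRK-49F cells 3 were called as higher and 1 as lower, with a median of 0.09. The shares of all genes called as higher were 28.2% and 18.4%, so the NRK-49F count is at the background. Hspa5, the HSP70 of that compartment, went from 800 ± 65.0 to 3920 ± 724 FPM in NRK-52E cells and was at 667 ± 42.5 and 583 ± 106 FPM in NRK-49F cells. Manf followed in NRK-52E cells (log2 1.96 ± 0.15). In NRK-49F cells Hyou1 (1.16 ± 0.14) and Dnajc10 (0.65 ± 0.09) rose most and Sdf2l1 fell by 0.62 ± 0.14. The count ratio of the cytosolic Hspa8 to Hspa5 fell from 0.914 to 0.231 in NRK-52E cells and rose from 2.92 to 3.79 in NRK-49F cells, both with separate groups (exact permutation p = 0.0286, adjusted p = 0.0440). For HSP90 the ratio of Hsp90ab1 to the reticulum form Hsp90b1 fell in both lines, from 1.83 to 1.16 and from 3.05 to 2.57. Of Hspa8 to Hspa9 it fell from 2.72 to 1.09 in NRK-52E cells and from 9.32 to 5.87 in NRK-49F cells. In all, 13 of the 20 ratio tests had an adjusted p below 0.05.

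**Figure D2:**
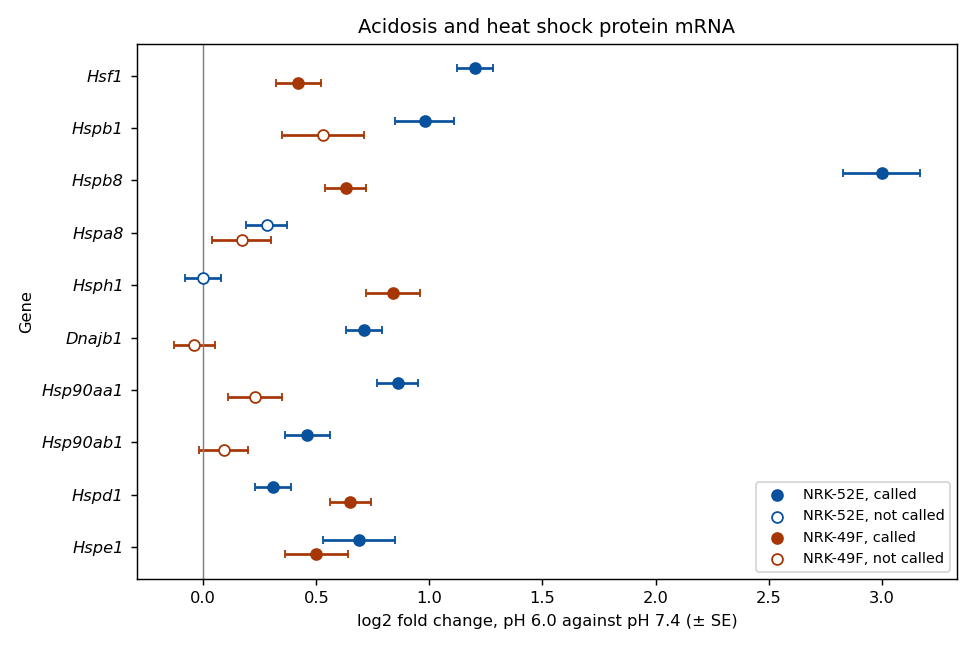
Log2 fold change of the 10 members (vertical axis) at pH 6.0 against pH 7.4 (horizontal axis), with error bars for the SE of edgeR, in NRK-52E and NRK-49F cells. Filled points were called in edgeR and DESeq2 and open points were not, and Hspb8 in NRK-52E cells, at 3.0, lies farthest to the right.

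The lines also differed at the same pH, where line and growth support cannot be told apart. At pH 7.4, where 66.6% of 14026 genes were called between the lines, 33.3% as higher and 33.3% as lower in NRK-52E cells, 7 members were called, and at pH 6.0 again 7, against 59.8% of 13796 genes, 28.6% as higher and 31.3% as lower. These shares are near the background, and without N15 only 4 members were called at pH 6.0. Hspb1, Hsph1 and Dnajb1 were higher in NRK-52E cells at both pH values, and Hspb8, Hspa8 and Hsp90ab1 lower at both. The Hsph1 call at pH 6.0 (0.45 ± 0.13) was lost without N3, N4, N7, N12, N15 or N16. The libraries of the lines overlapped for Dnajb1 at pH 7.4. Hsf1 was lower in NRK-52E cells at pH 7.4 (log2 -0.36 ± 0.09; -0.05 and not called with library totals) and not called at pH 6.0 (0.33 ± 0.10, edgeR adjusted p = 0.0128). There it was called without N8 or N11 (0.37 to 0.39), with library totals (0.48), with DESeq2 size factors (0.38), by DESeq2 alone (0.37), with a filter of 1 CPM (0.34) and in the fit of all 16 libraries (0.33). Hspd1 was not called at pH 7.4 (0.13 ± 0.08; 0.44 and called with library totals) or at pH 6.0 (-0.31 ± 0.09, edgeR adjusted p = 0.0101), where DESeq2 alone (-0.27) and the fit of all 16 libraries (-0.31) called it. Hsp90aa1 was at -0.01 ± 0.09 at pH 7.4, where library totals gave a called 0.30, and higher at pH 6.0 (0.52 ± 0.12), a call that was lost without N15 (0.50). The difference of Dnajb1 at pH 7.4 was small (0.27 ± 0.08) and was not called without N1, N2, N6, N9 or N10 (0.22 to 0.28), with no filter (0.26) or in the fit of all 16 libraries (0.19), and that of Hsp90ab1 at pH 6.0 (-0.51 ± 0.13) was not called without N4, N7, N11, N12 or N15 (-0.51 to -0.47) or with library totals (-0.37). Scaling by library totals moved the median of all genes from 0.03 to 0.34 at pH 7.4 and from -0.03 to 0.12 at pH 6.0, and the share of higher calls at pH 7.4 from 50.0% to 65.7%. It moved the interaction's median from -0.01 to -0.25 and its share of higher calls from 52.4% to 33.8%.

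Summed over the 10 members, heat shock transcripts took 0.408% to 0.433% of all counts in NRK-52E cells at pH 7.4 and 0.522% to 0.552% at pH 6.0. In NRK-49F cells the shares were 0.516% to 0.552% and 0.521% to 0.712%, and library N16 had the 0.521%. The pH groups were thus separate in NRK-52E cells and overlapped in NRK-49F cells. N16 was also the lowest of its group for Hsf1, Hspb1, Hspa8, Hsph1, Dnajb1, Hsp90aa1 and Hsp90ab1. In NRK-52E cells at pH 6.0 library N8 was the lowest for Hsf1, Hspb8, Hsph1, Dnajb1, Hsp90aa1, Hsp90ab1 and Hspd1 and the highest for Hspb1 and Hspe1. Over all genes its distance from N4 was the largest of any 2 libraries of a group (chi-square per degree of freedom 92.2).

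Among 8934 named genes with at least 10 FPM, those whose 4 group means of log2(FPM + 1), each gene centred on its own mean, lay closest to a member's were found by the root mean square difference. For Hsf1 they were Atp6v0b (0.02) and Erlec1 (0.03). For Hsp90aa1 they were Rad23b (0.01) and Ube2d3 (0.02). Hspb1 lay closest to Tardbp and Rfx7, Hspa8 to Slc39a6 and Rex1bd, Hsph1 to Anln and Pde3b, Dnajb1 to Kdm6b and Trabd, Hsp90ab1 to Wbp11l1 and Wbp11, Hspd1 to Spin1 and Xpnpep3, and Hspe1 to Sympk and Ndufa3, at differences of 0.01 to 0.06. The pattern of Hspb8 had no such close match, and the nearest genes, Psmb8 and Steap3, differed by 0.25 and 0.29. How close matches come by chance among 8934 genes was not tested, and neither was shared regulation.

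A heat shock element is a row of nGAAn units in alternating orientation, and HSF1 binds at least 3 of them as a trimer. The RefSeq promoter table (GRCr8) held 8 of the 10 members, all but Hsf1 and Hsp90aa1, each with 250 bases before and 50 after the start of transcription. The paired units GAANNTTC and TTCNNGAA, which read the same on both strands and overlap in longer elements, were searched in them. Either pair was found in 7 of 8 members and in 15.9% of all 33469 promoters of that length (8.59% for GAANNTTC and 8.77% for TTCNNGAA). Rows of 3 alternating units were found in Hspa8, Hsph1, Hspd1 and Hspe1, against 0.798% of all promoters, and rows of 4 in Hspd1 and Hspe1, against 0.0478%. Hspd1 and Hspe1 share a single element, described below, so these counts of pairs and rows hold it under both genes. The promoter of Hsp90ab1 held neither pair in this window. Either pair was found in 4 of 14 promoters of HSP90 co-chaperones (1 with 4 units in a row), 3 of 13 of the cytosolic chaperonin and prefoldin (1 with 3 units), and in 3 of 12 of the mitochondrial list. It was found in 2 of 9 of J-domain proteins (1 with 3 units), 3 of 11 of further HSP70s and exchange factors, 1 of 5 of further small heat shock proteins, 0 of 3 of the heat shock factor list and 1 of 14 of endoplasmic reticulum chaperones.

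The stretches around the pairs are shown for members with different responses. Hspb8, with a single pair, had the largest change in NRK-52E cells (Hsph1 0.00), and Hsph1, with 3 units in a row, the largest in NRK-49F cells (0.84, Hspb8 0.63). Hspa8, with 2 such rows of 3 units, was not called for pH in either line (0.28 and 0.17), and its stretch is not printed. A relation of elements to responses was not tested. Capitals mark the pairs and the longer rows they form, 5′ to 3′ on the strand of the gene. Hspb8 lies at chr12:45837265-45837307 on the plus strand, Hspb1 at chr12:26432383-26432450 on the minus strand, Dnajb1 at chr19:41431142-41431172 on the minus strand and Hsph1 at chr12:10427243-10427364 on the plus strand (GRCr8). A second pair of Dnajb1 lies after the start and is not printed.
Hspb8: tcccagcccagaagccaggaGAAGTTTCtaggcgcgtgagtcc
Hspb1: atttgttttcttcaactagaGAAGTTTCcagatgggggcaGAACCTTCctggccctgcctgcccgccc
Dnajb1: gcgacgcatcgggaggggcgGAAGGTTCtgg
Hsph1: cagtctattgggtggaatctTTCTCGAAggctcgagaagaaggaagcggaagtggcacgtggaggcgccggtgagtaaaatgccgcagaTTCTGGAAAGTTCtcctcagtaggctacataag

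Hspd1 and Hspe1 are neighbours that are read away from each other, with starts 290 bases apart on opposite strands, and their promoter windows share 211 bases. The row of 4 units lies in the shared stretch, so that it is a single element seen from both sides, at 225 to 242 bases before the start of Hspd1 and 48 to 65 before that of Hspe1. It is shown for both genes, Hspd1 at chr9:64084242-64084287 on the minus strand and Hspe1 at chr9:64084242-64084299 on the plus strand (GRCr8). A match of letters is a description and not a measured binding site.
Hspd1: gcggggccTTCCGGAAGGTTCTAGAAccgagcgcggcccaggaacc
Hspe1: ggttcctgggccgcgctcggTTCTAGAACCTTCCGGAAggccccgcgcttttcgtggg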

How the data were processed

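The authors deposited a table of raw counts of fragments per gene for the 16 libraries. The submitters' processing notes name HISAT2 2.1.0, featureCounts and the rat build rn6, whereas the study's methods name another aligner, so the aligner is uncertain. Per those methods, paired fragments were counted over exons and fragments with several matches were counted at each. A use of strand was not stated, so genes that overlap on opposite strands cannot be told apart.

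Counts were analysed in R 4.3.3 with edgeR 4.0.16 (TMM, filterByExpr, quasi-likelihood test) and DESeq2 1.42.0 (Wald test), with Benjamini-Hochberg adjustment over all genes tested, and a gene was called below 0.01 in both, in the same direction. Log2 fold changes, SE and adjusted p are those of edgeR. Each comparison of 2 groups used their 8 libraries and the interaction all 16. FPM were computed with TMM factors over all 16 libraries and so differ slightly from the fits, which scale their own libraries. Ratios of 2 genes were tested by exact permutation of log2 count ratios, two-sided, adjusted over 20 tests. The analysis code was tested on simulated data. Library totals ran from 16201084 to 34784862. No 2 libraries of a group agreed within sampling noise (smallest chi-square per degree of freedom 6.12).

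The members and the lists of further genes were chosen with earlier results of these data known. From each list the called genes with the 2 largest rises and the 2 largest falls per line were named among those whose higher group mean reached 10 FPM, with Hspa1a, Hspa1b and Bag3 whatever their values. Partners in ratios, and Hsf4, are named beyond that rule. For likeness of pattern the 2 nearest genes were named. Promoter sequences are from RefSeq (GRCr8), and analyses were run in Python 3.11.15 with NumPy 2.4.6 and pandas 2.3.3. Alternatives were other scalings, filters, tools and thresholds, a fit of all 16 libraries, each library left out, and the second number as a covariate or one number at a time. They were not applied to the counts of the further lists. The planned comparison of protein sequences was not made.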

Additional observations from a re-analysis of the deposited data

Results flagged for a closer look

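The effect of pH on the log2 scale differed between the lines for 5 members by the interaction in edgeR and DESeq2. The difference, NRK-52E minus NRK-49F, was 0.77 for Hsf1, 2.36 for Hspb8, -0.85 for Hsph1, 0.74 for Dnajb1 and 0.61 for Hsp90aa1. Leaving out each library in turn gave 0.63 to 0.83, 2.14 to 2.46, -0.96 to -0.76, 0.63 to 0.78 and 0.47 to 0.67, all past the threshold except Hsp90aa1 without library N3. In that fit the median interaction of all genes was -0.12, against -0.01 with all libraries. With library totals Hsp90aa1 was at 0.37 and not called.

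A library stood far from the other 3 of its group in 3 of the 40 combinations of member and group, and chance gives about 1 in 20. Library N13 of NRK-49F cells at pH 7.4 had 187.2 FPM of Hspb1, with the others at 150.2 to 154.8, and 2584 FPM of Hsp90ab1, with the others at 2394 to 2419. Library N7 of NRK-52E cells at pH 6.0 had 163.5 FPM of Dnajb1, with the others at 151.5 to 153.2. The distances are small beside the pH effect for Dnajb1 in NRK-52E cells.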

How the results depend on the processing

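Of 880 recomputed log2 fold changes of members, 58 lost a call, 22 gained one and 1 changed sign with a call, Hsp90aa1 between the lines at pH 7.4 with library totals (0.30). Uncalled values near 0 changed sign too, as Hspa8 (-0.07) and Hsp90ab1 (-0.03) with the number 21 and Dnajb1 (0.12) with the number 20 in NRK-49F cells. Library totals also brought the members called in NRK-52E cells from 8 to 5, with the median of all genes at -0.21. The cause was not tested. With a library left out the count was 6 to 8 in NRK-52E cells, 3 to 5 in NRK-49F cells (3 without N9, N10 or N15, where Hsf1 and Hspe1 lost their calls), 6 to 7 between the lines at pH 7.4, 4 to 8 at pH 6.0 (4 without N15) and 5 to 6 for the interaction. These fits have fewer samples. With the number 21 alone, which leaves 2 against 2 libraries, none of the members was called in NRK-49F cells (1980 of 13861 genes were), and 8 were with the number 20 alone (4680 of 13379 genes). In NRK-52E cells 5 were called with the number 21 alone (5244 of 13903 genes) and 4 with 22 (2820 of 13952). The second number as a covariate was fitted only for the pH comparison within each line, where it changed no call of a member. Of 200 recomputed ratio changes 198 stayed within 1 SD, and the ratio of Hspa8 to Hspa9 in NRK-49F cells moved further within the numbers 20 and 21, without a change of sign. Single libraries could not be paired because each has its own library number, so the second number was the only block tried. Hspa1b had from 13 counts in a library.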
